A study of Mus musculus with 18 samples.

Results

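Nuclei selected as Cajal-Retzius neurons, a rare cell class of the outer hippocampal layers, numbered 138 of the 71398 hippocampal (Hip) nuclei kept from 9 mice, or 0.193%. They were selected on raw counts of unique molecular identifiers (UMIs, one per captured RNA molecule). A nucleus needed at least 1 UMI of Trp73, which encodes the p53 family transcription factor p73, and at least 3 of Reln, which encodes the secreted glycoprotein reelin. It could hold at most 1 UMI of the GABA synthesis genes Gad1 and Gad2 together, at most 1 of Mog, Mag, Aqp4, Gja1, Csf1r and Flt1 together, which mark glia and vessels, and at most 1 of the ependymal genes Foxj1, Tmem212 and Ccdc153 together. These genes chose the nuclei and are described below without a test.

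The series profiled the Hip and prefrontal lobe cortex (PFC) of 9 Kun Ming mice by droplet single-nucleus RNA sequencing of frozen tissue, with 1 library from each region of a mouse. Of these mice 3 were germ-free (GF), 3 were specific pathogen-free (SPF) and 3 were GF mice colonized later (CGF), all taken at 8 weeks. CGF mice were GF mice that had lived with SPF mice in an isolator from 4 weeks of age, and GF and CGF mice stayed in isolators while SPF mice were raised elsewhere. The mouse is the replicate in every comparison, and mice are named by group and by the mouse number of the labels (GF 5, 6 and 7, SPF 30, 31 and 32, CGF 17, 18 and 19). The labels of GF mouse 6 and GF mouse 7 are in doubt, since the barcode counts listed for them with the study are exchanged against the files in both regions, which leaves group values as they are.

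Cajal-Retzius cells are among the first neurons of the developing cortex and hippocampus. They secrete reelin, which guides the layering of later neurons through the lipoprotein receptors VLDLR and ApoER2 and the adaptor DAB1. They use glutamate, and most of them die after birth, though some persist in the adult hippocampus near the hippocampal fissure. Adult hippocampal reelin also comes from GABAergic interneurons, so Reln by itself does not mark the class.

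Kept Hip libraries held between 48289446 and 63063847 UMIs. GF libraries stood apart from the others in the neuronal classes examined here, with higher sums of oxidative phosphorylation and ribosomal protein genes, as given beside the group comparisons. Any pair of Hip libraries shared 9 to 29 cell barcodes. Of the 138 Cajal-Retzius barcodes, 4 also occurred in another Hip library, and 0 were shared between Cajal-Retzius nuclei of different libraries.

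The nuclei were spread over all 9 Hip libraries. GF mouse 5 had 5, GF mouse 6 had 26 and GF mouse 7 had 15. SPF mouse 30 had 7, SPF mouse 31 had 36 and SPF mouse 32 had 15. CGF mouse 17 had 12, CGF mouse 18 had 8 and CGF mouse 19 had 14. As shares of kept nuclei these ran from 0.0615% (exact 95% binomial interval 0.0200 to 0.144%, counting error only) in GF mouse 5 to 0.488% (0.342 to 0.675%) in SPF mouse 31. GF and SPF mice differed more among themselves than the group means did, and CGF mice less.

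The nuclei were shallow. They held a median of 2626 UMIs and 1553 genes each, with a range of 1085 to 17543 UMIs, and 439738 UMIs in all. The library medians were 2706, 1882 and 2185 UMIs in the GF mice, 3041, 2506 and 3410 in the SPF mice and 4140, 2899 and 3071 in the CGF mice. Other excitatory nuclei, defined by at least 3 UMIs of the vesicular glutamate transporter gene Slc17a7 with no Trp73 UMI and the same Gad, glial and ependymal limits, numbered 10557 with a median of 10306 UMIs. Reln interneurons, with at least 3 Reln UMIs and at least 4 of Gad1 and Gad2, numbered 1090 with a median of 9181 UMIs. A gene missing from a Cajal-Retzius nucleus was therefore often only not detectable at this depth.

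Among the genes of the rule, Trp73 (chr4:154056253-154140208, minus strand, GRCm38) had 1 UMI in 48 nuclei, 2 to 4 in 74 and 5 or more in 16, with a highest count of 9. Reln (chr5:21884454-22344702, minus strand) had a median of 18.5 UMIs and a highest count of 86, and 114 nuclei held 10 or more although the rule asked for 3. Summed per library and scaled to CPM (counts scaled to a total of 1000000), Reln stood between 3284 and 9975 CPM, while the Reln interneurons stood between 1172 and 2034 CPM. Gad1 had a UMI in 18 of the 138 nuclei and Gad2 in 8.

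Few nuclei lay close to the Reln threshold. Exactly 3 Reln UMIs were seen in 2 Cajal-Retzius nuclei, while 5 nuclei with Trp73 had 2 Reln UMIs and 48 had 1. Of those just outside, 2 of the 5 and 0 of the 48 fell into the expression cluster that held most Cajal-Retzius nuclei. Another 892 nuclei had Trp73 with no Reln and also no place in that cluster, and 660 nuclei had at least 3 Reln UMIs with no Trp73, of which 23 were in it. Nuclei that failed only the Gad limit numbered 5 with 2 or 3 Gad UMIs, 3 of them in the cluster, and 11 with 4 or more, none of them in it.

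In a clustering of the Hip nuclei, 1 of 52 clusters held 127 of the 138 nuclei. That cluster had 166 nuclei, 76.5% of them selected by the rule. Of its 15 nearest neighbours in expression, a Cajal-Retzius nucleus had a median of 11 that were Cajal-Retzius nuclei too (interquartile range 10 to 13), and 6 had none. The 39 other nuclei of the cluster also carried Ndnf (87.2%) and Ebf3 (59.0%), genes of the class that the rule did not use. The 11 selected nuclei outside the cluster were deeper, with a median of 8748 UMIs, and 9 of them carried Slc17a7 against 39 of the 127 inside. Despite that depth, Ndnf had a UMI in 5 of the 11 and Ebf3 in 2, against 117 and 84 of the 127. The class name follows the rule and is used for all 138 nuclei, though it is less borne out in these 11, and in some not at all. In CGF mouse 18 the outside nucleus had 3 Reln UMIs, 1 Gad1 UMI and 0 UMIs of the 12 listed genes given below. The interneuron marker level of that library is given below too. In GF mouse 6, 1 outside nucleus had 8 Slc17a7 UMIs and 0 UMIs of the 12 genes. The 11 nuclei held 94849 UMIs, 21.6% of those of the class, but 47.7% in SPF mouse 30, 46.8% in GF mouse 6, 29.2% in SPF mouse 32, 22.4% in CGF mouse 19 and 22.0% in CGF mouse 18, and none in GF mice 5 and 7. Levels summed per library include them, and values of the 127 nuclei inside the cluster are given beside the results that they moved most. Clustering used Trp73 and Reln among other genes, so this placement describes the nuclei and is no test.

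The label was checked against 12 genes known from Cajal-Retzius cells that the rule did not use. At least 1 of them was present in 133 of the 138 nuclei, at least 3 in 105, and none in 5. The same counts were not taken in the deeper comparison classes, so they do not by themselves set the class apart. Single genes are compared at one depth below. Ndnf (chr6:65671590-65712326, plus strand), a secreted neurotrophic factor, had a UMI in 122 nuclei. Ebf3 (chr7:137193673-137314445, minus strand), a helix-loop-helix transcription factor of the early B-cell factor family, had one in 86. Cacna2d2 (chr9:107399612-107529343, plus strand), an auxiliary subunit of voltage-gated calcium channels, had one in 108.

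The LIM homeodomain factors that mark the class were sparser. Lhx1 (chr11:84518284-84525535, minus strand) had a UMI in 31 nuclei and Lhx5 in 14, and 42 nuclei had at least one of these genes. Barhl2 had 5 UMIs over all 138 nuclei, Ebf2 had 3 and the chemokine receptor gene Cxcr4 had 1, so these listed genes rest on very few molecules. The listed genes were thus carried by nearly all nuclei as a group, though few nuclei carried each of the weaker ones. Nuclei with only 1 Trp73 UMI had Ndnf in 81.3% and Ebf3 in 50% of cases, and nuclei with at least 2 had them in 92.2% and 68.9%, a difference that was not tested.

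To compare detection at one depth, each nucleus was thinned at random to 1000 UMIs, which left out 7 excitatory nuclei and no other. Ndnf then had a UMI in 72.5% of Cajal-Retzius nuclei (88.4% unthinned), in 0.294% of other excitatory nuclei and in 11.6% of Reln interneurons. Ebf3 was seen in 31.2%, 0.0379% and 0.0917% of these classes, and Cacna2d2 in 47.1%, 0.493% and 6.42%. For Lhx1 the shares were 7.25%, 0.00948% and 0%, the last being 0 of 1090 nuclei. Other excitatory nuclei, which should lack these genes, thus had each of them in under 0.5% of nuclei, the level to be set against free RNA in droplets.

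**Figure D1:**
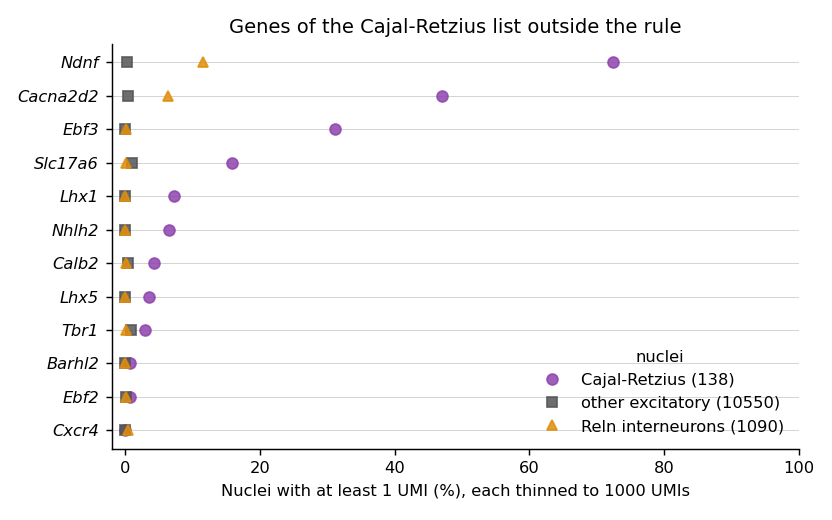
Share of nuclei with at least 1 UMI (x axis, %) for the 12 listed genes (y axis) after thinning every nucleus to 1000 UMIs, in Cajal-Retzius nuclei (138), other excitatory nuclei (10550) and Reln interneurons (1090). Ndnf was detected in 72.5%, 0.294% and 11.6% of the 3 classes, while Barhl2, Ebf2 and Cxcr4 stayed near 0 in all of them.

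Transmitter genes had UMIs in part of the nuclei, and at this depth a missing UMI does not show that a nucleus lacked the gene. Slc17a6, which encodes the vesicular glutamate transporter VGLUT2, had a UMI in 57 nuclei (41.3%), and Slc17a7, which encodes VGLUT1, had one in 48 (34.8%). Both were present in 21 nuclei and neither in 54. At 1000 UMIs, Slc17a6 was seen in 15.9% of Cajal-Retzius nuclei against 0.967% of other excitatory nuclei, and Slc17a7 in 13.8% against 36.3%, the latter chosen on this gene. Reln interneurons, which are GABAergic, had Slc17a7 in 7.16% of nuclei at that depth.

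UMIs were then summed per library and class, and each gene outside the rule was tested between Cajal-Retzius nuclei and other excitatory nuclei of the same library (edgeR quasi-likelihood test, library as a block, Benjamini-Hochberg adjusted p under 0.05). Of 14593 genes tested, 731 (5.01%) were higher and 2517 (17.2%) lower in Cajal-Retzius nuclei. The split depended on how sums of unequal depth were scaled. The median over all genes was -0.37 log2 with TMM and 0.31 with library totals. With DESeq2, which kept a larger set of genes and tested 17648, the median was 0.75, with 2246 called higher and 981 lower. Calls made in the same direction by all 3 scalings numbered 714 higher (4.89%) and 805 lower (5.52%). Such calls are termed held below, and a gene is said to be higher or lower only where its call held.

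The 11 nuclei outside the main cluster bore on the size of the falls. Listed and named genes with a held call against other excitatory nuclei and a value inside the cluster were 62 higher and 66 lower. With nuclei inside the cluster alone, 1 of the 62 lost its call (Dlx6os1) and 0 of the 66, while 37 of the 66 lay lower still, by more than 1.5 times. Against Reln interneurons 3 of 51 higher genes lost their call (Arc, Slc17a7 and Slit2) and 0 of 56 lower ones, of which 29 lay lower still by more than 1.5 times. None of these genes changed direction.

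Of the 12 listed Cajal-Retzius genes, 10 had enough counts for this test and all 10 were held as higher, with a median log2 fold change of 6.30 beside -0.37 over all genes. One of the 10 was Ebf2, whose 3 UMIs lay in 2 nuclei and whose level was above that of other excitatory nuclei in 2 of 9 libraries. Listed genes nearly absent from the comparison class, such as Lhx1, passed the filter on low counts only through the Cajal-Retzius sums. Genes low in both classes were not tested, so the tally was in part set by the filter. Against Reln interneurons, where 9 could be tested, all 9 were held as higher with a median of 5.30 beside -0.16, a tally in part set by the filter too. In that comparison 633 of 9728 genes (6.51%) were higher and 1585 (16.3%) lower, of which 610 (6.27%) and 718 (7.38%) held.

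Ndnf stood at 1652, 925 and 1220 CPM in the GF mice, 951, 1443 and 780 in the SPF mice and 2035, 1659 and 1196 in the CGF mice. Pooled over libraries, it stood at 1563 CPM in the nuclei inside the main cluster and at 137 CPM in the 11 outside. Other excitatory nuclei of the same libraries ran from 1.22 to 5.02 CPM and Reln interneurons from 74.4 to 353. All 9 Cajal-Retzius values lay above both ranges (log2 fold change 8.37 ± 0.24 SE, adjusted p = 3.55e-253 against excitatory nuclei, and 2.87 ± 0.21 SE, adjusted p = 8.16e-42 against Reln interneurons).

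Ebf3 stood at 63.5, 169 and 387 CPM in the GF mice, 245, 577 and 374 in the SPF mice and 438, 332 and 454 in the CGF mice. The lowest value was that of GF mouse 5, which had 5 nuclei, and it still lay above the highest value of other excitatory nuclei (2.96 CPM) and of Reln interneurons (4.68 CPM). The log2 fold changes of Ebf3 were 8.45 ± 0.27 SE and 8.10 ± 0.35 SE. Pooled over libraries, it stood at 470 CPM inside the main cluster and at 31.6 CPM outside.

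Cacna2d2 ran from 207 to 1207 CPM with a median of 520 over the 9 libraries, against at most 6.87 in other excitatory nuclei and at most 96.6 in Reln interneurons. Slc17a6 ran from 52.1 to 299 CPM with a median of 211, against 5.82 to 13.9 and 0.653 to 7.82. Neither range overlapped with that of a comparison class. Lhx1 had counts in 8 of 9 libraries, none in SPF mouse 30, and a median of 82.5 CPM, while excitatory nuclei had at most 0.148 CPM and Reln interneurons at most 10.9.

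Further factors of the list were carried by fewer nuclei. Nhlh2, a basic helix-loop-helix factor, was held as higher against both classes (6.49 ± 0.49 SE and 6.01 ± 0.78 SE) with 19 UMIs in all. Calb2, which encodes calretinin, rose by 1.72 ± 0.52 SE with 11 UMIs, and the T-box factor Tbr1 by 1.66 ± 0.43 SE with 18 UMIs against excitatory nuclei, in which Tbr1 is also expressed. These last values rest on few molecules and have wide errors.

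Genes outside any list also set the class apart. The rule for naming took the genes with the largest changes among those that passed the test, changed the same way in all 9 libraries and had at least 50 CPM in the higher class. Among the rises, Dach1, a transcriptional cofactor, stood between 1003 and 2922 CPM with a median of 1772, against 12.0 to 26.2 CPM in other excitatory nuclei (log2 fold change 5.79 ± 0.22 SE). Against Reln interneurons, which had 12.3 to 38.7 CPM, the change was 5.87 ± 0.24 SE. At 1000 UMIs per nucleus Dach1 was detected in 76.1% of Cajal-Retzius nuclei, 2.04% of other excitatory nuclei and 1.28% of Reln interneurons.

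Utrn, which encodes the dystrophin relative utrophin, ran from 845 to 2341 CPM, with other excitatory nuclei at 13.5 to 32.5 and Reln interneurons at 151 to 355 (5.35 ± 0.22 SE and 1.93 ± 0.20 SE). Cdh4, an R-cadherin for cell adhesion, ran from 730 to 1488 CPM against 22.4 to 37.3 and 54.2 to 114. Eln, which encodes elastin of the extracellular matrix, ran from 191 to 412 CPM against at most 9.38 and 20.3. None of these ranges overlapped.

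The other rises of the rule were Lrig3 (6.60 ± 0.28 SE), a leucine-rich repeat membrane protein, Vmn2r1 (5.57 ± 0.32 SE), of the vomeronasal receptor family, Tram2 (4.92 ± 0.42 SE), Hs3st5 (4.71 ± 0.20 SE), a heparan sulfate sulfotransferase, and Tmem163 (4.48 ± 0.20 SE), a zinc transport protein. They also included Eya2 (4.17 ± 0.27 SE), a transcriptional coactivator, Bmper (4.02 ± 0.21 SE), a secreted regulator of bone morphogenetic proteins, and Btbd11 (3.97 ± 0.35 SE). Against Reln interneurons the largest rises were Ebf3, Eya2 (6.44 ± 0.41 SE), Dach1, Tmem163 (5.77 ± 0.24 SE), Slc17a6 (5.30 ± 0.35 SE) and Emx2os (4.85 ± 0.30 SE). Emx2os is an antisense transcript that overlaps 1 gene on the other strand. Dach1, Eya2, Tmem163 and Ebf3 were therefore named in both comparisons.

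The largest falls against other excitatory nuclei were held in all 10 cases. They were Slc26a4 (-5.28 ± 0.74 SE), an anion exchanger with 1 UMI in all Cajal-Retzius nuclei, Cntnap5c (-4.46 ± 0.33 SE), Hs3st4 (-3.81 ± 0.25 SE), another heparan sulfate sulfotransferase, Frmpd4 (-3.80 ± 0.23 SE), a postsynaptic scaffold protein, and Col4a2 (-3.78 ± 0.50 SE), a basement membrane collagen. The rest were Slc24a4 (-3.75 ± 0.51 SE), Ror1 (-3.69 ± 0.39 SE), P3h2 (-3.65 ± 0.51 SE), Fam19a1 (-3.52 ± 0.22 SE) and the presynaptic adhesion gene Nrxn3 (-3.43 ± 0.21 SE). Nrxn3 ran from 63.5 to 3692 CPM in Cajal-Retzius nuclei and from 3520 to 6083 in other excitatory nuclei, with no library in which the Cajal-Retzius value was the higher one. In the nuclei inside the main cluster Nrxn3 ran from 63.5 to 963 CPM (log2 fold change -4.11), so its highest values came with the 11 nuclei outside. The order of the falls depended on those nuclei too, since inside the cluster Ror1 and P3h2 had 0 UMIs and Slc24a4 stood at -5.47, Frmpd4 at -4.91, Hs3st4 at -4.84, Col4a2 at -4.48 and Fam19a1 at -4.31.

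Against Reln interneurons, the falls named by the rule were led by Dchs2 and Lypd6b, each with 0 UMIs in the 138 nuclei, where 3 counts, the limit that a count of 0 allows, correspond to 6.82 CPM. Reln interneurons had at least 64.7 CPM of Dchs2 and at least 43.6 CPM of Lypd6b in every library. Col19a1 (-6.18 ± 0.36 SE) and Adarb2 (-5.91 ± 0.29 SE, and -6.95 and -7.15 inside the main cluster), both found in interneurons of the caudal ganglionic eminence, followed. Pappa and Dlx1as each had 1 UMI, that of Dlx1as outside the main cluster, and Dlx1as overlaps the interneuron gene Dlx1.

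**Figure D2:**
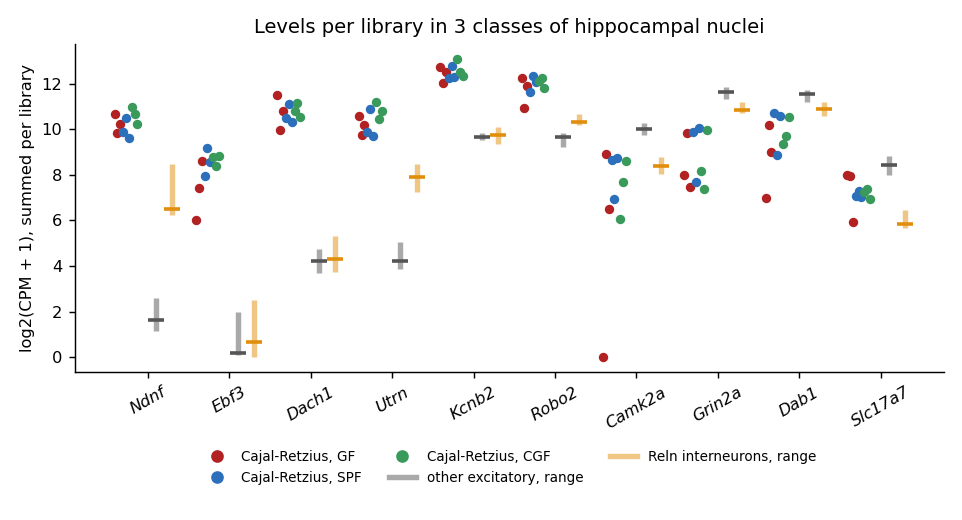
Level of 10 genes as log2(CPM + 1) of summed UMIs, with 1 point per library for Cajal-Retzius nuclei coloured by group and bars for the range over the 9 libraries (line, median) of other excitatory nuclei and Reln interneurons. Ndnf, Ebf3, Dach1, Utrn, Kcnb2 and Robo2 lay above both bars in all 9 libraries, and Camk2a, Grin2a and Dab1 lay below the bar of other excitatory nuclei in all 9.

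Markers of other cell types were checked next. Of 10 listed markers of pallial excitatory neurons, 9 were in the files and tested. None was higher and 3 were held as lower against other excitatory nuclei, where 5.52% of all genes were, among them Camk2a and Slc17a7, of which the latter had chosen the comparison nuclei, while the 6 other lower calls did not hold. Camk2a, a kinase of excitatory synapses, stood at 0, 482 and 89.3 CPM in the GF mice, 408, 124 and 422 in the SPF mice and 65.6, 207 and 392 in the CGF mice, all below the 872 to 1252 CPM of other excitatory nuclei. Inside the main cluster its values ran from 0 to 346 CPM (log2 fold change -3.52 beside -2.80). At 1000 UMIs per nucleus Camk2a was seen in 17.4% of Cajal-Retzius nuclei, 62.0% of other excitatory nuclei and 26.5% of Reln interneurons.

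Of 11 interneuron markers outside the rule, 8 could be tested against Reln interneurons. None was higher and 5 were held as lower, where 7.38% of all genes were, with a median log2 fold change of -3.44 beside -0.16 over all genes. Both classes had been chosen on Gad1 and Gad2, so this direction was largely set beforehand and is no test of the label. Against other excitatory nuclei, Sst (0.91 ± 0.33 SE, 31 UMIs) and Dlx6os1 (2.26 ± 0.58 SE, 9 UMIs in 5 nuclei) were held as higher and Adarb2 as lower, though Dlx6os1 did not pass with nuclei inside the main cluster (1.40, adjusted p = 0.229). The summed level of the list was between 89.3 and 699 CPM in 8 Cajal-Retzius libraries and 5393 CPM in CGF mouse 18, against 376 to 658 CPM in other excitatory nuclei and 9866 CPM or more in Reln interneurons. Inside the main cluster it was 89.3 to 573 CPM in the 9 libraries and 266 CPM in CGF mouse 18, so the high level of that library came from its 1 nucleus outside.

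Of 17 glial, vascular, ependymal and choroid markers outside the rule, 2 were held as higher against other excitatory nuclei (4.89% of all genes) and 2 of the 8 tested against Reln interneurons (6.27% of all genes), Ttr in both cases. Ttr, the transthyretin gene of the choroid plexus, stood at 0, 4483 and 1637 CPM in the GF mice, 136, 381 and 1576 in the SPF mice and 241, 0 and 516 in the CGF mice, against 2.30 to 1493 CPM in other excitatory nuclei. The values were thus highest in GF mouse 6 and 0 in GF mouse 5 and CGF mouse 18. Inside the main cluster Ttr ran from 0 to 6803 CPM, again highest in GF mouse 6. The whole list summed to 254 to 5043 CPM in Cajal-Retzius nuclei with a median of 1335, against 404 to 1941 in other excitatory nuclei. At 1000 UMIs Ttr had a UMI in 53.6% of Cajal-Retzius nuclei and in 22.9% and 21.4% of the comparison classes, and the part of this RNA in the other results was not tested.

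Receptors and channels followed the same order of description. Against other excitatory nuclei, 12 of 22 glutamate receptor genes were held as lower (16 before the other scalings) and 2 as higher, with a median of -1.51 beside -0.37. Over all genes 5.52% were held as lower and 4.89% as higher, so the higher count was near that of any genes. Grin2a, an NMDA receptor subunit, stood at 254, 912 and 179 CPM in the GF mice, 951, 206 and 1056 in the SPF mice and 284, 166 and 1011 in the CGF mice, and other excitatory nuclei at 2554 to 3704. Its 9 values lay below that range (-3.36 ± 0.22 SE). In the nuclei inside the main cluster they ran from 122 to 312 CPM (-4.57), without the higher levels of GF mouse 6, SPF mice 30 and 32 and CGF mouse 19. Grm5, the metabotropic receptor mGluR5, was lower by -3.16 ± 0.22 SE on the log2 scale, and by -4.16 inside the main cluster.

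Gria4, an AMPA receptor subunit, and Grik1, a kainate receptor subunit, went the other way and were higher than in other excitatory nuclei (0.89 ± 0.19 SE and 0.95 ± 0.26 SE). Both were lower than in Reln interneurons (-1.27 ± 0.21 SE and -4.54 ± 0.27 SE), where 15 of 21 glutamate receptor genes were held as lower and none as higher. Of 12 GABA-A receptor genes, 6 were held as lower against each class and none as higher, with medians of -1.68 and -1.53. The shares of all genes held as lower were 5.52% against other excitatory nuclei and 7.38% against Reln interneurons. Gabrb1, a beta subunit, was lower by -2.51 ± 0.21 SE against other excitatory nuclei and by -1.29 ± 0.22 SE against Reln interneurons, and by -3.47 and -2.30 inside the main cluster.

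Voltage-gated channels were split. Of 32 genes, 5 were held as higher and 13 as lower against other excitatory nuclei, where 4.89% and 5.52% of all genes were, and 6 and 8 of 29 against Reln interneurons, where the shares of all genes were 6.27% and 7.38%. The higher 5 were Cacna2d2, the pacemaker channel gene Hcn4 with 10 UMIs, and the potassium channel genes Kcnb2, Kcnc2 and Kcnh7. Kcnb2, a delayed rectifier, ran from 4261 to 8752 CPM with a median of 5804 over the 9 libraries, against 731 to 903 in other excitatory nuclei and 647 to 1089 in Reln interneurons (2.09 ± 0.19 SE and 2.19 ± 0.21 SE). Kcnh7, of the ether-a-go-go family, ran from 2945 to 8196 CPM against 749 to 1446 and 864 to 1241. Neither overlapped with a comparison class.

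Kcnc2 was higher than in other excitatory nuclei (0.95 ± 0.19 SE), while its lower value against Reln interneurons did not hold. Kcnd2, an A-type potassium channel gene, was lower than in both classes (-3.26 ± 0.21 SE and -1.74 ± 0.22 SE, and -4.11 and -2.62 inside the main cluster).

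Axon guidance genes gave a like picture, with 4 of 34 held as higher and 18 as lower against other excitatory nuclei, and 5 and 12 of 30 against Reln interneurons, beside the same shares of all genes. Robo2, a receptor for Slit ligands, stood at 4892, 1942 and 3869 CPM in the GF mice, 3206, 5278 and 4305 in the SPF mice and 4442, 4937 and 3589 in the CGF mice. All were above the 603 to 922 CPM of other excitatory nuclei and the 1160 to 1656 CPM of Reln interneurons (1.60 ± 0.19 SE and 0.98 ± 0.20 SE). Ntng2, which encodes netrin-G2, rose by 0.75 ± 0.21 SE against other excitatory nuclei and by 4.14 ± 0.25 SE against Reln interneurons, in which it was nearly absent at 6.23 to 20.9 CPM. The secreted netrin gene Ntn4 and the chemokine gene Cxcl12 were higher than in excitatory nuclei as well (3.61 ± 0.39 SE and 2.80 ± 0.47 SE), with 27 and 16 UMIs.

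Of 20 genes of the reelin pathway, 2 were held as higher and 1 as lower against other excitatory nuclei, with a median of -0.44 beside -0.37 over all genes. Over all genes 4.89% were held as higher and 5.52% as lower, so these counts were near those of any genes. The lower gene was Dab1, the adaptor that relays the reelin signal. It stood at 127, 1173 and 506 CPM in the GF mice, 1685, 474 and 1543 in the SPF mice and 656, 830 and 1506 in the CGF mice, below the 2366 to 3391 CPM of other excitatory nuclei in all 9 libraries (-2.47 ± 0.20 SE, adjusted p = 9.89e-32). It was also lower than in Reln interneurons (-1.63 ± 0.22 SE), at 1529 to 2322 CPM, though 2 Cajal-Retzius values reached into that range. In the nuclei inside the main cluster Dab1 ran from 127 to 798 CPM, below both ranges in all 9 libraries (-3.47 and -2.66). At 1000 UMIs per nucleus Dab1 was seen in 37.0% of Cajal-Retzius nuclei, 85.5% of other excitatory nuclei and 67.0% of Reln interneurons.

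The reelin receptor genes were sparse. Vldlr had 15 UMIs and Lrp8, which encodes ApoER2, had 24, and neither passed the test against excitatory nuclei (-0.67 ± 0.40 SE and -0.78 ± 0.33 SE, adjusted p = 0.232 and 0.0718). The higher genes were Cdk5r1, an activator of the kinase Cdk5, and Cfl1, which encodes the actin-severing protein cofilin (0.78 ± 0.31 SE and 0.83 ± 0.24 SE), both also higher against Reln interneurons. Limk1, the kinase that acts on cofilin, was held as lower against Reln interneurons.

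Of 14 genes of the p53 family and cell death, 1 was held as higher and none as lower against other excitatory nuclei. Against Reln interneurons 1 of 8 was held as higher, and the survival gene Bcl2 was held as lower (-2.79 ± 0.57 SE), with 4 UMIs in all Cajal-Retzius nuclei and UMIs in 32.1% of Reln interneurons, which were deeper. With 6.27% and 7.38% of all genes held as higher and lower against Reln interneurons, and 4.89% and 5.52% against other excitatory nuclei, the counts of this list were near those of any genes. Trp63, the other p53 relative, had 0 UMIs, which allows up to 6.82 CPM.

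Among 8 genes of transmitter release and chloride transport, Slc17a6 and Slc17a8, which encodes VGLUT3, were held as higher against other excitatory nuclei (3.76 ± 0.26 SE and 4.52 ± 0.59 SE, the latter with 10 UMIs). The glutamate uptake gene Slc1a1 was among the 3 held as lower, as was Slc17a7, whose count had chosen the comparison nuclei, so that its direction was set beforehand. Over all genes 4.89% were held as higher and 5.52% as lower. The chloride transporter genes Slc12a2 and Slc12a5 had UMIs in 21 and 33 nuclei, and neither call held in either direction.

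Among housekeeping lists, oxidative phosphorylation genes were held as higher in 14 of 76 cases and lower in 0 against other excitatory nuclei (median 0.35). Ribosomal protein genes were held as higher in 6 of 78 and lower in 0 (median 0.44). Over all genes 4.89% were held as higher, with a median of -0.37, so the ribosomal count in this comparison was near that of any genes. Against Reln interneurons 12 of 67 oxidative phosphorylation and 6 of 43 ribosomal protein genes were held as higher and 0 as lower. Their medians were 0.44 and 0.74 beside -0.16 over all genes, of which 6.27% were held as higher. None of the 13 genes of the mitochondrial genome passed. Of 4 transcripts linked to ribosomal RNA reads, Gm42418 and Cmss1 were held as higher. Of 11 immediate early genes, no call held against other excitatory nuclei, and Arc and Egr1 were held as higher than in Reln interneurons, 2 of 7 tested where 6.27% of all genes were. Inside the main cluster Arc did not pass (adjusted p = 0.0508).

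**Figure D3:**
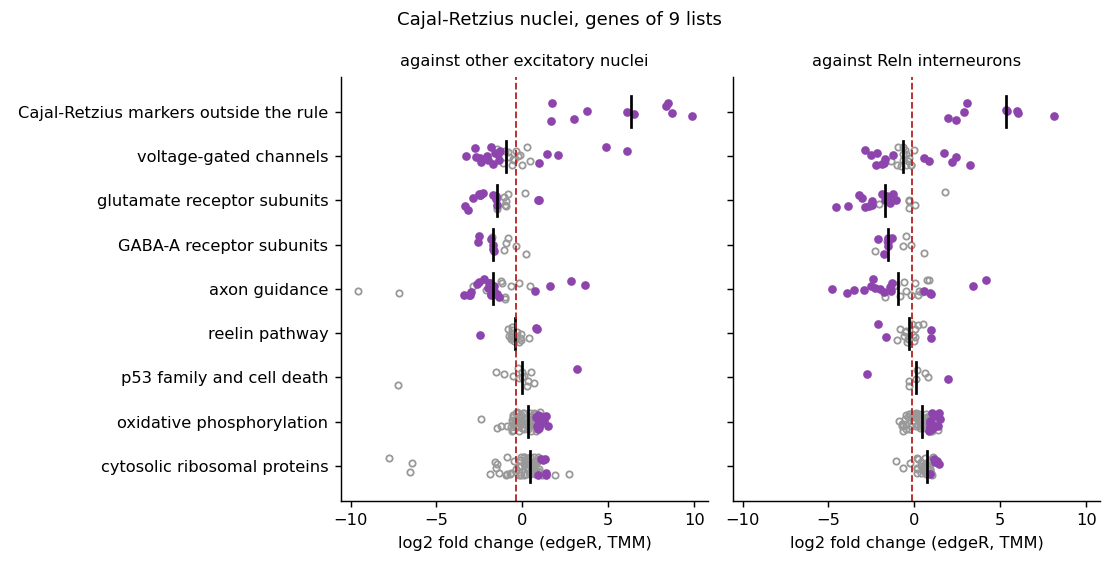
Log2 fold change (x axis, edgeR with TMM) of each tested gene of 9 lists (rows) in Cajal-Retzius nuclei against other excitatory nuclei (left) and Reln interneurons (right), with filled points for calls that held under all 3 scalings, black lines for list medians and a dashed line for the median of all genes tested. The 12-gene Cajal-Retzius list had its 10 and 9 tested genes to the right, and most glutamate and GABA-A receptor genes lay to the left of the dashed line.

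The same rule found 4 nuclei among 66602 in the PFC (0.00601%), of which GF mouse 5 had 1, GF mouse 6 had 2 and SPF mouse 31 had 1. The other 6 PFC libraries had 0, which allows a share of up to 0.0331 to 0.0525% by 3 counts. The share was higher in the Hip than in the PFC in 9 of 9 mice, by a mean of 0.189 ± 0.125 percentage points (SD, n = 9), with a range of 0.0488 to 0.473 (exact sign-flip permutation test, two-sided, p = 0.00391, the smallest the design allows). PFC libraries of SPF and CGF mice were shallower. With nuclei of both regions thinned to 3000 UMIs the difference was 0.0988 points, higher in 8 of 9 mice and equal in the other (exact p = 0.00781), and thinned to 1000 UMIs it was 0.130 points.

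None of the 4 PFC nuclei had Ndnf, which was present in 122 of 138 Hip nuclei. All 4 carried Slc17a7, with 1 to 3 UMIs, and they held between 5486 and 11687 UMIs. One had none of the 12 listed genes, and the others had 1, 3 and 4.

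**Figure D4:**
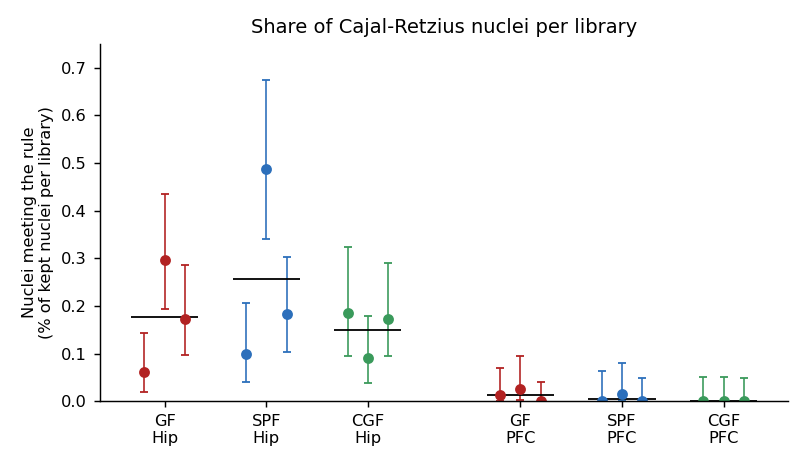
Share of kept nuclei meeting the Trp73 and Reln rule (y axis, %) in each Hip and PFC library by group, with exact 95% binomial intervals as bars. Hip shares ran from 0.0615 to 0.488% and PFC shares were 0 in 6 of 9 libraries.

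Colonization and its absence were compared for the share of Cajal-Retzius nuclei. GF mice had a mean share of 0.177 ± 0.118%, SPF mice one of 0.257 ± 0.204% and CGF mice one of 0.150 ± 0.0514% (SD, n = 3 each), and the groups overlapped. An exact permutation test over the 3 groups gave p = 0.679 (two-sided, 1680 assignments). The differences were -0.0798 points for GF against SPF, -0.107 for CGF against SPF and 0.0274 for GF against CGF (exact permutation p = 0.6, 0.5 and 0.9, where 3 against 3 cannot go below 0.1). Without SPF mouse 31 the differences from SPF changed sign, to 0.0355 for GF and 0.0081 for CGF. With every nucleus thinned to 3000 UMIs and shallower ones left out, the shares were 0, 0.0493 and 0.0328% in the GF mice, 0.0743, 0.247 and 0.200% in the SPF mice and 0.155, 0.0455 and 0.102% in the CGF mice. GF and SPF mice then did not overlap (GF minus SPF -0.146 points, exact permutation p = 0.1, the smallest 3 against 3 allows, and p = 0.0679 over the 3 groups), on 5 GF and 31 SPF nuclei. This depth left out most GF Cajal-Retzius nuclei, whose library medians were 2706, 1882 and 2185 UMIs. Thinned to 1000 UMIs, GF minus SPF was -0.083 points (exact permutation p = 0.5, and p = 0.318 over the 3 groups). No setting passed the test, and a difference was thus neither shown nor shown to be absent.

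Gene expression was compared between groups in summed Cajal-Retzius nuclei. Only 943 genes had enough counts, since the 9 sums held between 15740 and 97000 UMIs. Between GF and SPF, 2 of the 943 (0.212%) passed the test, with 92 at an unadjusted p under 0.05. The count was 60 of 738 genes with the 127 nuclei inside the main cluster, 83 of 993 with all nuclei of that cluster and 30 of 751 with nuclei of at most 1 Slc17a7 UMI, and 0 without GF mouse 5, GF mouse 7 or SPF mouse 30. In other excitatory nuclei of the same mice, with far more UMIs, 7006 of 16053 genes (43.6%) passed, and in Reln interneurons 2256 of 10530 (21.4%). Group comparisons share mice, so each is given with its own values.

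The gene with the smallest p was Malat1, an abundant nuclear long noncoding RNA. It stood at 67340, 69900 and 60890 CPM in the GF mice, 28390, 37910 and 34490 in the SPF mice and 36470, 31990 and 33470 in the CGF mice. GF values did not overlap with either group (GF against SPF 1.16 ± 0.14 SE, edgeR adjusted p = 0.00258, and GF against CGF 1.16, adjusted p = 0.0026), though neither call passed by DESeq2 (adjusted p = 0.867 and 0.0814) or by edgeR with no filter on low counts (adjusted p = 0.337 and 0.0846). The edgeR call against SPF was lost without GF mouse 5, GF mouse 7 or SPF mouse 30 (adjusted p = 0.0801 to 0.0911), and that against CGF without GF mouse 7 or any single CGF mouse (0.0552 to 0.145). Other excitatory nuclei differed by 1.20 on the same scale.

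Fth1, the ferritin heavy chain that stores iron, stood at 1271, 1173 and 1667 CPM in the GF mice, 245, 309 and 227 in the SPF mice and 241, 207 and 516 in the CGF mice. It was higher in GF than in SPF (2.55 ± 0.38 SE, edgeR adjusted p = 0.0113) and CGF mice (2.23, adjusted p = 0.0194), again with no overlap, and other excitatory nuclei rose by 1.73 against SPF. Leaving out GF mouse 5, GF mouse 7, SPF mouse 30 or SPF mouse 32 put its adjusted p against SPF at 0.0602 to 0.0911.

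Between GF and CGF mice 12 of the 943 genes (1.27%) passed, 11 of them higher in GF, with 130 at an unadjusted p under 0.05. The count was 75 of 751 genes (51 higher and 24 lower) with nuclei of at most 1 Slc17a7 UMI, 89 of 738 (55 and 34) with nuclei inside the main cluster and 108 of 993 (62 and 46) with all nuclei of that cluster. In other excitatory nuclei 7055 (43.9%) passed and in Reln interneurons 2571 (24.4%). Besides Malat1 and Fth1, the genes were mt-Co3 of the mitochondrial genome (2.89 ± 0.49 SE), Stmn3, a tubulin-binding stathmin (2.50 ± 0.44 SE), Ly6h (2.32 ± 0.37 SE), the actin-binding thymosin gene Tmsb4x (2.32 ± 0.45 SE), the prohormone convertase inhibitor gene Pcsk1n, the ribosomal gene Rpl41 (2.26 ± 0.42 SE), Ubb, Nrgn and C1qtnf4. Without CGF mouse 17, CGF mouse 18 or GF mouse 7 no gene passed, without CGF mouse 19 the count was 2 and without GF mouse 5 it was 6, with fewer samples in each fit. C1qtnf4, Pcsk1n, Rpl41, Stmn3 and Ly6h passed the filter on low counts only through their GF values. The tally of rises was thus in part set by the filter. With no filter C1qtnf4, Pcsk1n, Rpl41 and Nrgn did not pass (edgeR adjusted p = 0.104 to 0.266). Fth1, Stmn3, Ly6h and Tmsb4x still passed. Leaving out any single GF or CGF mouse lost the edgeR calls of C1qtnf4, Pcsk1n and Rpl41 (adjusted p = 0.0611 to 0.269). Pcsk1n did not pass by DESeq2 (adjusted p = 0.092), which gave no adjusted p for C1qtnf4 and Rpl41. The 11 genes that rose were also called higher in GF than in CGF mice in both other classes. In other excitatory nuclei their rises ran from 0.92 (Stmn3) to 3.24 (mt-Co3).

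The gene that fell was Gpr137c (chr14:45219717-45282725, plus strand), an orphan membrane receptor relative. It stood at 127, 117 and 119 CPM in the GF mice, 163, 217 and 244 in the SPF mice and 525, 498 and 371 in the CGF mice, so the 3 groups did not overlap. GF was lower than CGF by -1.71 ± 0.35 SE (edgeR adjusted p = 0.0378, and 0.184 by DESeq2), on 2, 9 and 4 UMIs in the GF mice. Gpr137c passed the filter on low counts only through its CGF values. The edgeR call was lost with at least 2 Trp73 UMIs (adjusted p = 0.129) and with no filter on low counts (0.266). It was also lost on leaving out any single mouse but SPF mouse 30 (0.063 to 0.211). CGF against SPF was 1.10 with an adjusted p of 0.999. Other excitatory nuclei ran from 88.6 to 119 CPM over the same 9 libraries, and GF was lower there too. The differences were -0.41 against SPF and -0.33 against CGF (edgeR adjusted p = 0.00272 and 0.00792). In Reln interneurons GF was lower than SPF (-0.41, edgeR adjusted p = 0.0388), and the difference from CGF did not pass (-0.11, 0.592). A gene that overlaps Gpr137c on the same strand, Gm49194, could share its reads.

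Between CGF and SPF mice 0 of 943 genes (0%) passed by edgeR, with 35 at an unadjusted p under 0.05, and 0 passed by DESeq2. The counts in other excitatory nuclei and Reln interneurons were 38 (0.237%) and 7 (0.0665%). Groups without overlap in CPM were found for 161 of the 943 genes (17.1%) between GF and SPF, 86 (9.12%) between CGF and SPF and 188 (19.9%) between GF and CGF.

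Few listed genes of the class could be tested between groups. Of the Cajal-Retzius list 4 could be tested between GF and SPF and 0 passed by edgeR, with a median of -0.06. Since 0.212% of all genes passed, a count of 0 says nothing particular about this list. The list summed to 3558, 1850 and 3155 CPM in the GF mice, 1848, 3402 and 2031 in the SPF mice and 3523, 2614 and 2537 in the CGF mice, and these overlapped. Inside the main cluster the sums ran from 2706 to 3883 CPM, with 3157 in GF mouse 6 and 3426 in SPF mouse 30, and the groups overlapped there too. Of 18 voltage-gated channel, 13 axon guidance, 10 glutamate receptor and 6 reelin pathway genes tested in this comparison, 0 passed by edgeR, with medians of -0.07, -0.11, -0.26 and 0.27, and the same share of all genes stands beside these counts.

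Some housekeeping lists stood apart in GF mice, in Cajal-Retzius nuclei and in other neurons. Oxidative phosphorylation genes summed to 6734, 7949 and 7173 CPM in Cajal-Retzius nuclei of GF mice, 2554, 3536 and 3866 of SPF mice and 2801, 3070 and 3795 of CGF mice. Group means in other excitatory nuclei were 3488, 1817 and 1686. Ribosomal protein genes had means of 3877, 1426 and 1183 CPM in Cajal-Retzius nuclei and 1592, 659 and 579 in other excitatory nuclei. Transcripts linked to ribosomal RNA had means of 762, 2222 and 2035 CPM in Cajal-Retzius nuclei, lowest in GF mice, and of 307, 941 and 801 in other excitatory nuclei. For the oxidative phosphorylation list GF libraries lay above all others in both classes, and the part of this shift in the gene results above was not tested.

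The difference between GF and SPF was then compared between Cajal-Retzius nuclei and other excitatory nuclei in 1 fit. Of 14605 genes, 1 (0.00685%) passed, with 422 at an unadjusted p under 0.05, and 0 by DESeq2. It was Sgcz (chr8:37522298-38661508, minus strand), which encodes zeta-sarcoglycan of the dystrophin-linked membrane complex. Cajal-Retzius nuclei held 0, 1 and 0 UMIs of it in the GF mice, 46, 9 and 16 in the SPF mice and 35, 5 and 19 in the CGF mice, while other excitatory nuclei stood at 314 to 845 CPM in all groups. The difference of differences was -5.71 ± 0.99 SE (edgeR adjusted p = 0.000117), and within Cajal-Retzius nuclei GF against SPF was -5.45 with an adjusted p of 0.0966. Of the 131 UMIs, 84 lay in the 11 nuclei outside the main cluster and 47 in the 127 inside it, and without those 11 nuclei, with 0 GF UMIs left, the difference was -12.7 with an adjusted p of 0.051. With all nuclei of the cluster it was -12.7 and passed (adjusted p = 0.000313), and sizes against 0 UMIs depend on the prior count of the fit. The adjusted p was 0.241 without SPF mouse 30 and 0.0532 without GF mouse 7.

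**Figure D5:**
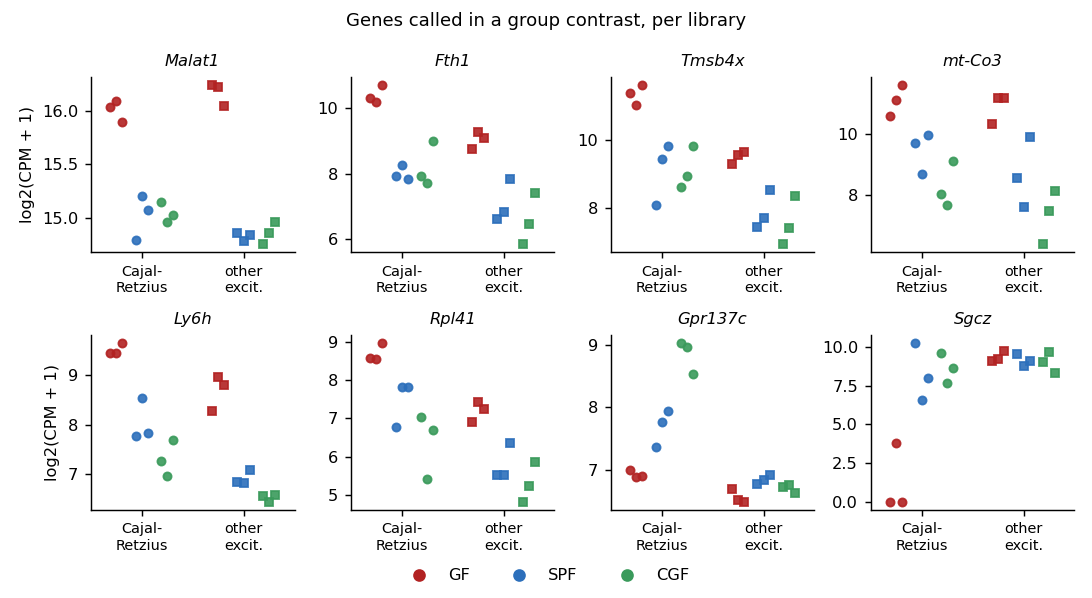
Level as log2(CPM + 1) of 8 genes called in a group comparison, with 1 point per library of Cajal-Retzius nuclei (circles) and other excitatory nuclei (squares), coloured by group. Malat1, Fth1 and Tmsb4x were higher in GF than in CGF mice in both classes, Gpr137c reached 371 to 525 CPM in Cajal-Retzius nuclei of CGF mice, and Sgcz was at 0 in 2 of 3 GF libraries of Cajal-Retzius nuclei.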

How the data were processed

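Nuclei of 18 libraries (9 Hip, 9 PFC) had been profiled by the authors with the 10x Genomics Chromium Single Cell 3′ kit. The deposited files hold raw UMI counts per gene and barcode, which the authors made with Cell Ranger on mm10, and no value was normalized. Whether intronic reads were counted is not given in the sources used here. Labels gave the group and region of a library, and Hip and PFC libraries were paired by mouse.

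Kept nuclei had at least 200 genes and at most 10% mitochondrial UMIs. No doublet caller was run. UMIs were summed per library and class and tested with edgeR 4.0.16 (filterByExpr, TMM, glmQLFit, glmQLFTest, Benjamini-Hochberg, threshold 0.05). Standard errors (SE) were taken from the F statistic, as |log2 fold change| over its root. The library was a block in comparisons of classes. DESeq2 1.42.0 was an alternative. Tested on simulated data, TMM placed unchanged genes too low where sums differed in depth, so library totals and thinned sums were added, and a call held when TMM, library totals and DESeq2 agreed in direction and threshold. Shares were compared by exact permutation over mice (two-sided), with Clopper-Pearson intervals. Nuclei were clustered with leidenalg 0.10.2 on a graph of shared nearest neighbours (2000 variable genes, 30 components, 15 neighbours, Leiden resolution 1). Coordinates are those of GENCODE vM21 on GRCm38.

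The nuclei, gene lists and tests were chosen with earlier results of these data known. Genes named besides list members were the 15 largest rises and 10 largest falls against other excitatory nuclei and 6 of each against Reln interneurons, among genes past the threshold that changed the same way in 9 libraries, with at least 50 CPM in the higher class and a symbol other than a Gm number or Rik name. In group comparisons they were the 6 largest each way among called genes whose groups did not overlap, and genes named beyond these were chosen after their values were seen. Alternatives were DESeq2, no filter, other thresholds of the rule, thinning, cluster nuclei and leaving out each library. One listed pallial marker was not analysed here. Some listed genes that passed are not reported here.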

Additional observations from a re-analysis of the deposited data

Results flagged for a closer look

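Sgcz was called, though not in every setting, for a GF against SPF difference unlike that of other excitatory nuclei (edgeR interaction of class and group, log2 difference -5.705, adjusted p = 0.000117, 1 of 14605 genes). The gene stood at 314 to 845 CPM in other excitatory nuclei and at 3194 to 4300 CPM in Reln interneurons over the 9 libraries. Of its 131 UMIs in Cajal-Retzius nuclei, GF libraries held 1. SPF libraries held 46, 9 and 16, so 1 library supplied most of the SPF counts, and CGF libraries held 35, 5 and 19. The gene did not pass by DESeq2, with members that have at most 1 Slc17a7 UMI (-12.8, adjusted p = 0.116), with members inside the main cluster alone (-12.7, adjusted p = 0.051), without SPF mouse 30 (-4.84, adjusted p = 0.241) or without GF mouse 7 (-4.91, adjusted p = 0.0532). It passed with all nuclei of that cluster (-12.7, adjusted p = 0.000313) and with no filter on low counts (-5.70, adjusted p = 0.000174). The 11 nuclei outside that cluster held 84 of the Sgcz UMIs but 21.6% of all UMIs of the class, and the class name is less borne out in them. Their part in the call was not tested further.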

How the results depend on the processing

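With 5 to 36 nuclei a library, 943 genes could be tested between groups, and 1 library could decide a count. Between GF and SPF the 2 calls became 1 by DESeq2, 24 with no filter on low counts, 30 with at most 1 Slc17a7 UMI, 6 with at least 2 Trp73 UMIs, 83 with all nuclei of the main cluster and 60 with selected nuclei inside it, and 0 to 4 leaving out 1 library (0 without GF 5, GF 7 or SPF 30, 1 without SPF 32, 4 without SPF 31). Between CGF and SPF the 0 calls became 8 with no filter, 1 in a fit of 6 libraries, 1 with cluster nuclei, 1 inside the cluster, and 0 to 1 leaving out a library. Between GF and CGF the 12 became 11 of 635 tested by DESeq2, 20 with no filter, 75 with at most 1 Slc17a7 UMI, 108 with cluster nuclei, 89 inside the cluster and 0 to 14 leaving out a library. The 1 interaction became 0 by DESeq2, 0 with at most 1 Slc17a7 UMI, 11 with cluster nuclei, 0 inside the cluster, and 0 to 17 leaving out a library (0 without SPF 30, 2 without GF 7, neither of them Sgcz, 3 without GF 5, 8 without SPF 31, 17 without GF 6). The cause of these shifts was not tested.

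The 3248 and 2218 calls against other excitatory nuclei and Reln interneurons fell to 796 and 702 when the comparison sums were thinned to the UMIs of Cajal-Retzius nuclei, which left 1504 and 1536 testable genes. They stood at 2685 to 3316 and 1792 to 2369 leaving out a library, and at 3278 and 1488 with no replicate block. TMM gave 731 higher and 2517 lower against other excitatory nuclei, where library totals gave 2071 and 883, DESeq2 2246 and 981, and thinned sums 374 and 422. Against Reln interneurons the splits were 633 and 1585, 1460 and 750, 993 and 839, and 339 and 363. Among named and held listed genes, 2009 of the alternative values against other excitatory nuclei kept direction and threshold and 114 kept direction alone. Against Reln interneurons 1674 kept both, 88 kept direction alone and 1 reversed, Slc17a7 at -0.0231 in nuclei limited to 1 Slc17a7 UMI by construction.

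For the share of nuclei, GF minus CGF reversed to -0.0169 points with at least 2 Trp73 UMIs, -0.0735 thinned to 3000 UMIs, -0.0323 without GF 6 and -0.00203 without CGF 18, and without SPF 31 the differences from SPF were 0.0355 for GF and 0.0081 for CGF. Leaving out each mouse in turn, GF minus SPF ran from -0.158 to 0.0355 points, CGF minus SPF from -0.186 to 0.0081 and GF minus CGF from -0.0323 to 0.0853. The p over 3 groups ran from 0.0679 (exact permutation, thinned to 3000 UMIs) to 0.921, and Hip minus PFC kept its direction in every alternative, at 0.153 to 0.206 points leaving out a mouse and 0.164 points in the 3 GF mice alone (exact permutation p = 0.25, the smallest 3 pairs allow). Alternatives with cluster nuclei, library totals, thinned sums and thinning to 1000 UMIs were chosen after seeing the data.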

Other observations

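Nuclei that shared the main cluster without meeting the rule numbered 39 over 8 Hip libraries, with a median of 2729 UMIs. Of these, 23 had at least 3 Reln UMIs and no Trp73 UMI, and 8 had 2 or more UMIs of the glial and vascular genes. Ndnf was carried by 87.2% and Slc17a7 by 46.2% of them, against 92.1% and 30.7% of the 127 selected nuclei in the cluster. Counting the whole cluster, GF mice had a mean share of 0.228%, SPF mice of 0.282% and CGF mice of 0.187% (exact permutation test over 3 groups of 3, two-sided, p = 0.829).

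Shares were also taken among nuclei that held at least 3 UMIs of Slc17a7, Slc17a6, Gad1 and Gad2 together or met the rule. Cajal-Retzius nuclei then had means of 0.582 ± 0.437% (GF), 0.759 ± 0.680% (SPF) and 0.516 ± 0.128% (CGF) (SD, n = 3 each, exact permutation p = 0.907). The spread within GF and SPF mice was nearly as large as their means. Shallow neurons fell out of this denominator while every selected nucleus was counted, so these are not shares of all neurons.

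Mitochondrial RNA was uneven among Cajal-Retzius nuclei of a group. Genes of the mitochondrial genome made up 0.375, 0.852 and 1.20% of their UMIs in the GF mice, 0.386, 0.189 and 0.476% in the SPF mice and 0.158, 0.170 and 0.359% in the CGF mice, so GF mouse 5 lay within the SPF range.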
